A study of Saccharomyces cerevisiae with 160 samples.

Results

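Cdc20-depleted budding yeast cells were followed from G1 into S phase in a pair of cultures, by comparing transcript levels at 100 and 120 min after release with those at 40 and 60 min in the same culture. These 8 arrays, 4 per culture, were chosen by strain and time from the sample titles and are part of 32 arrays of this strain and of 160 arrays in the series. The strain was BF264-15DU MATa with the genotype bar1, cdc20::LEU2, Pgall-CDC20::ADE2 and CFP-TUB1::URA3. Its only *CDC20* was driven by a modified *GAL1* promoter, and it also lacked the pheromone protease gene *BAR1* and carried a fluorescent tubulin. G1 cells were collected by centrifugal elutriation and placed in dextrose medium with sorbitol at 30 degrees at time 0, with arrays every 20 min (from 40 min in culture 1 and from 20 min in culture 2). The culture was the replicate (n = 2). The main strain compared with it was *cdc8* (BF264-15DU MATa; cdc8-ts, a pair of cultures), which carries a temperature-sensitive thymidylate kinase. It keeps its native *CDC20* and *BAR1*, and was released in the same medium at the same temperature, which is restrictive for its allele. The paper used this allele to trigger the DNA replication checkpoint, so these cells are no reference for an unperturbed S phase. Values are also given for the strain with both cdc8ts and the *CDC20* construct (1 culture). Those of the same genotype with rad53-1 added (a pair of cultures) are given as well. Both strains are bar1 and CFP-TUB1::URA3 too. The paper triggered the same checkpoint in both of them.

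Entry into the cell cycle in budding yeast begins with the G1 cyclin Cln3, which relieves repression of a pair of transcription factors, SBF (Swi4 with Swi6) and MBF (Mbp1 with Swi6). SBF is best known for genes of budding and cell wall growth and for the cyclins *CLN1* and *CLN2*, and MBF for genes of DNA synthesis. Histone genes and targets of the forkhead factor Hcm1 follow in S phase, and genes of the Mcm1, Fkh2 and Ndd1 complex (SFF) follow towards mitosis. In bulk arrays, fewer cells in a stage and less transcript per cell cannot be told apart. Cdc20 activates the anaphase-promoting complex only at the metaphase-to-anaphase transition, which lies after the interval described here.

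Values are linear probe set intensities, changes are log2 differences of window means within a culture, and a gene was called when limma gave an adjusted p of at most 0.05 over all 5716 yeast probe sets. *GAL1*, the galactokinase gene, checked the move to dextrose. In culture 2 it stood at 17753 at 20 min, 9052 at 40 min and 2998 at 60 min, and in culture 1 it stood at 7783 at 40 min and 2629 at 60 min. By 120 min it had come down to 1083 and 1320, against 297 to 322 at that time in *cdc8* cells. *CDC20* itself gave no check of the depletion at the level of its transcript. It read 519, 449, 494 and 526 at 40, 60, 100 and 120 min in culture 1, and 680, 484, 596 and 612 in culture 2, where *cdc8* cells read 184.5 to 284 in the same windows. Its change of 0.08 was not called (adjusted p = 0.42). *BAR1* read 66.7 to 146 in the 8 arrays, where *cdc8* cells read 2148 to 5163, as the bar1 label requires. Of the MATa markers, the pheromone genes *MFA1* and *MFA2* read 8189 to 18520 and the alpha-factor receptor gene *STE2* 9220 to 14935. Of the MATalpha markers, *MF(ALPHA)1* and *MF(ALPHA)2* read 80.6 to 210.5, *STE3* 92.5 to 218, and the agglutinin gene *SAG1* 698 to 1523.

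The transcriptome was rearranged on a wide scale over this hour. Of the 5716 probe sets, 2960 were called, which is 51.8%, with 1477 higher (25.8%) and 1483 lower (25.9%) in the late window. The counts of members that rose or fell in each gene list below are to be read beside these shares. A change of at least 1 on the log2 scale together with a call was seen for 304 rises (5.32%) and 211 falls (3.69%). The median change over all probe sets was 0.00, and the median of the called rises was 0.58 and of the called falls -0.48. Across probe sets the changes of the cultures had a Pearson's r of 0.94, which describes genes of a pair of cultures and carries no test. With culture 1 left out, 1747 probe sets were called, and with culture 2 left out, 1471.

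**Figure D1:**
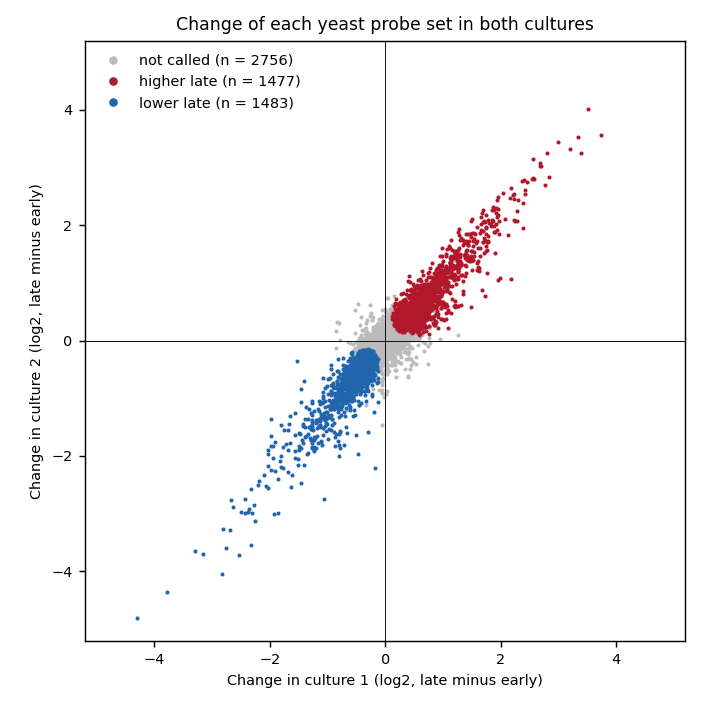
Change of each of 5716 yeast probe sets in culture 1 (x axis) and culture 2 (y axis), both as log2 of the late window over the early window. Red points are the 1477 probe sets called higher, blue points the 1483 called lower, and grey points the rest. The points spread along the diagonal, with a Pearson's r of 0.94 across probe sets.

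The G1/S regulon rose almost as a whole. Of 24 SBF targets, 23 rose and 0 fell, with a median change of 1.77 against 0.00 over all probe sets, and of 36 MBF targets, 34 rose and 0 fell, with a median of 1.70. The shares called higher stand beside 25.8% of all probe sets. The medians of the cultures were 1.70 and 1.95 for SBF targets and 1.74 and 1.72 for MBF targets. The members that did not pass, named after their values were seen, were the mannosyltransferase gene *OCH1* (0.36, adjusted p = 0.13), the primase gene *PRI1* (0.22, adjusted p = 0.074) and the replisome gene *CTF4* (0.35, adjusted p = 0.076).

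The largest rise was that of *RNR1*, the gene of the large ribonucleotide reductase subunit. Its intensities were 461, 945, 7350 and 7746 at 40, 60, 100 and 120 min in culture 1, and 343, 1211, 10648 and 10211 in culture 2. No late array came near an early one, and the change was 3.77 (SE 0.40, adjusted p = 0.00073), or 13.6-fold. *POL30*, which encodes PCNA, the sliding clamp of DNA polymerases, read 1093, 1624, 12706 and 11814 in culture 1 and 1247, 1277, 13271 and 12059 in culture 2, a change of 3.26 (SE 0.34, adjusted p = 0.00068). *MCD1*, the cleavable subunit of the cohesin ring, read 374, 504, 3127 and 2915, then 205, 405, 2737 and 2770, and changed by 3.03 (SE 0.35, adjusted p = 0.00094). These 3 MBF targets had separate early and late arrays in both cultures, which their choice by size of change nearly fixes. Over all probe sets, 15.2% had each late array above each early one.

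*CLN2*, a G1 cyclin, read 264, 238, 1615 and 1601 in culture 1 and 218, 253, 2043 and 1909 in culture 2, a change of 2.88 (SE 0.41, adjusted p = 0.0018). *PCL1*, a cyclin partner of the Pho85 kinase, changed by 3.22, and *GIN4*, a kinase of septin assembly at the bud neck, by 2.87. *TOS6*, which encodes a cell wall protein, read 574, 626, 6785 and 9569 in culture 1 and 599, 1830, 11844 and 13112 in culture 2, a change of 3.66 (SE 0.47, adjusted p = 0.0013). *TOS4*, a forkhead-domain protein, changed by 3.33 and *ACM1*, an inhibitor of the Cdh1 form of the anaphase-promoting complex, by 3.44. *ALG14*, which acts in protein glycosylation, changed by 2.86. Neither *ALG14* nor *ACM1*, which is on the list of SFF targets, belongs to the SBF or MBF list. Within the early window the largest rises differed: from 40 to 60 min in culture 2, *RNR1* went from 343 to 1211 and *TOS6* from 599 to 1830, while *ACM1* read 182 and 177.

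**Figure D2:**
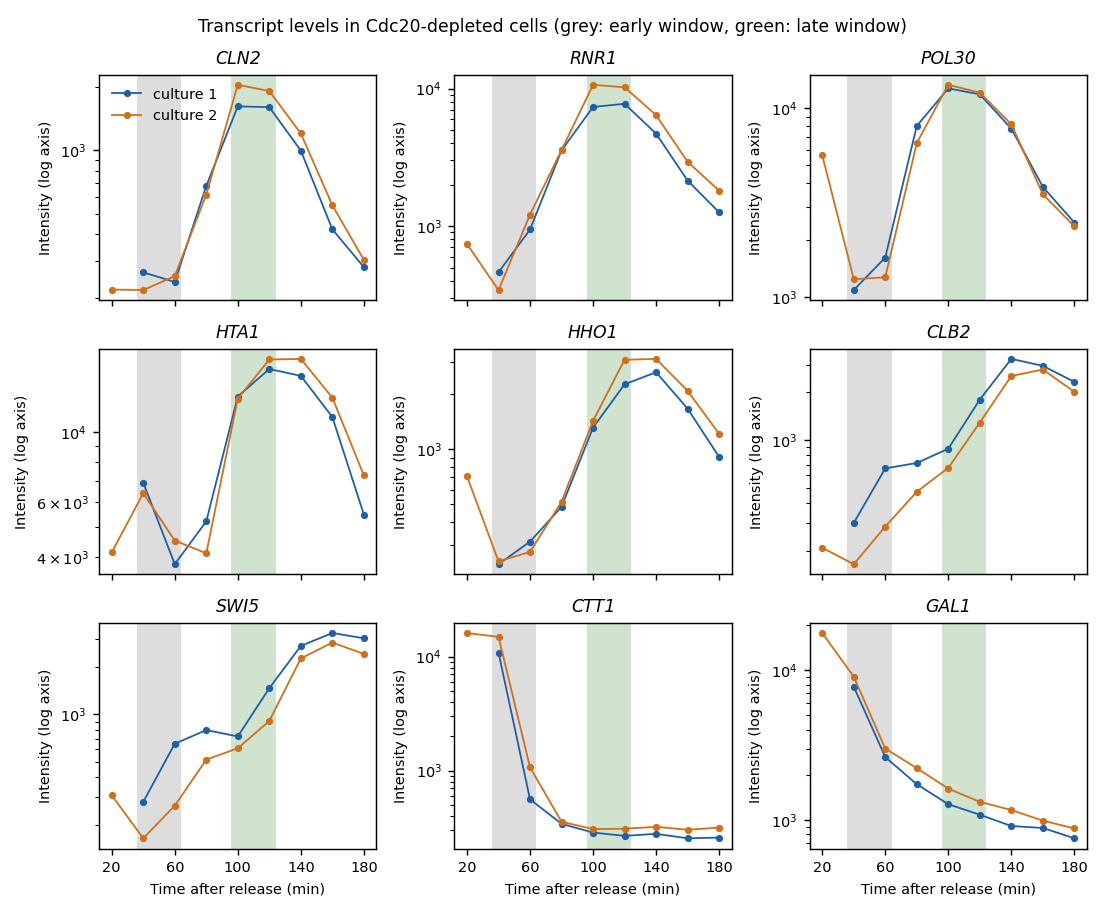
Intensity (log axis) of 9 genes against time after release (min) in culture 1 (blue) and culture 2 (orange) of Cdc20-depleted cells. Each point is 1 array. *CLN2*, *RNR1* and *POL30* are low in the grey early window and highest in the green late window, *HTA1* and *HHO1* are highest at 120 to 140 min, *CLB2* and *SWI5* still climb after the late window, and *CTT1* and *GAL1* fall within the early window.

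Regulators of the cell-cycle network moved with their targets. Of 19 network factors, 15 rose and 0 fell, with a median of 1.13. *SWI4*, the DNA-binding subunit of SBF, read 223, 319, 1076 and 968 in culture 1 and 239, 223, 1212 and 870 in culture 2, a change of 2.04 (SE 0.19, adjusted p = 0.00045). *YOX1*, a homeodomain repressor of early G1 genes, changed by 2.69 (adjusted p = 0.0013), *NRM1*, a co-repressor of MBF, by 2.23 (adjusted p = 0.0014), and *HCM1* by 1.84 (adjusted p = 0.00035). *NRM1* rose later than the others, from 710 at 100 min to 1281 at 120 min in culture 1 and from 879 to 1721 in culture 2. *WHI5*, the repressor that Cln3 relieves, rose by 0.91 (SE 0.14, adjusted p = 0.0023), with changes of 1.20 and 0.61 in the cultures.

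Among 19 cyclin genes, 11 rose and 2 fell. *CLN1* rose by 2.52 with *CLN2*, and the S-phase cyclins *CLB6* and *CLB5* rose by 1.67 and 0.76. *CLB5* read 1247, 1504, 2506 and 1830 in culture 1 and 1124, 1255, 2424 and 1945 in culture 2, so that it started from a higher level relative to its own peak than *CLN2* did. The mitotic cyclins *CLB2* and *CLB1* rose by 1.80 and 1.61. *CLB2* read 300, 662, 882 and 1802 in culture 1 and 164, 284, 667 and 1290 in culture 2, and its late arrays differed from each other more than those of G1 cyclins. *CLN3* rose by 0.75 (SE 0.07, adjusted p = 0.00058) but its groups of arrays overlapped, with early values of 778 to 2014 and late values of 1359 to 3235. The cyclin genes that fell, both named after their values were seen, were *PCL5* (-1.39, adjusted p = 0.00027) and *CLG1* (-0.75, adjusted p = 0.00067), partners of Pho85. *SIC1*, the inhibitor of S-phase cyclin kinase, read 377 and 350.5 early and 407 and 351 late in culture 1, and 388 and 277 early and 450 and 354 late in culture 2, and its change of 0.17 was not called (adjusted p = 0.17).

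The replication machinery rose unevenly. Of 31 genes of the replication fork, 24 rose and 0 fell, with a median of 1.30. *POL1*, the catalytic subunit of DNA polymerase alpha, read 557, 998, 3624 and 3276 in culture 1 and 441, 743, 3489 and 3127 in culture 2, a change of 2.37 (SE 0.28, adjusted p = 0.00094). *DPB2*, a subunit of DNA polymerase epsilon, rose by 2.02, and the DNA ligase gene *CDC9* by 1.97. Of 26 genes of origin loading and helicase assembly, by contrast, 13 rose and 3 fell, with a median of 0.33. *CDC45*, which encodes a helicase subunit loaded as origins fire, rose by 2.38 (SE 0.20, adjusted p = 0.00039) and was the largest of them. *MCM7*, a subunit of the same helicase, rose by 1.51 and the loader *CDC6* by 1.34, with *SLD2*, a firing factor, at 1.11. *CDC6* was at 782 and 812 at 80 min, about its level at 100 min (786.5 and 831), ahead of *POL1*, which stood at 2046 and 1887 at 80 min. The members that fell were *ORC6* (-0.44), *TAH11*, the yeast Cdt1 gene (-0.39) and *ORC4* (-0.35), which were named after their values were seen. The medians of the 26 origin genes were 0.27 in culture 1 and 0.36 in culture 2. Over all probe sets they were -0.0001 and -0.005.

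Of 17 genes of nucleotide synthesis, 9 rose and 1 fell. *RNR1* led them, followed by *DUN1*, the kinase that relieves inhibition of ribonucleotide reductase, at 2.67 (adjusted p = 0.00028), the thymidylate synthase gene *CDC21* at 2.49 (adjusted p = 0.00094) and the nucleoside diphosphate kinase gene *YNK1* at 1.91 (adjusted p = 0.00049). *HUG1*, an inhibitor of ribonucleotide reductase known from the damage response, was the member that fell (-0.61, SE 0.07, adjusted p = 0.00099), from 305 to 463 in the early arrays to 224 to 292 in the late ones. The small-subunit gene *RNR4* changed by 0.04 (adjusted p = 0.66) and *RNR2* by 0.45 (adjusted p = 0.0057).

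Genes of chromosome structure rose together with replication. Of 9 genes of cohesin and its regulators, 7 rose and 0 fell, with a median of 1.43, and *PDS5* and *SMC3* rose by 2.32 and 2.07 beside *MCD1*. Of 14 histone chaperones and partners, 7 rose and 0 fell, led by *SPT21*, a factor needed for histone transcription, at 2.39 (adjusted p = 0.00033) and the histone acetyltransferase *RTT109* at 1.91 (adjusted p = 0.00071).

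All 9 histone genes measured rose, with a median of 1.09, while *HHF2* was not analysed here. *HHO1*, the linker histone, rose the most. It read 234, 311, 1314 and 2272 in culture 1 and 243, 273, 1432 and 3099 in culture 2, a change of 2.86 (SE 0.19, adjusted p = 0.00026). Core histones started from a higher level. *HTA1*, one of the H2A genes, read 6894 at 40 min, 3807 at 60 min and 5203 at 80 min in culture 1, and then 12940 and 15817. In culture 2 it read 6387, 4522 and 4120, and then 12741 and 16954. Between 40 and 120 min the lowest array came at 60 min in culture 1 and at 80 min in culture 2. Its change was 1.47 (SE 0.15, adjusted p = 0.00068). *HTB2*, an H2B gene, rose by 1.70 and *HHF1* by 0.64 (adjusted p = 0.0012). The probe set of *HHF1* is of a kind that can bind near-identical copies, so its level may be that of both H4 genes. The *HTA1* change was 1.81 with 60 min as the only early array. The median of the histone list relative to its early window was -0.05 and -0.33 at 80 min in the cultures, when the MBF list had already reached 0.97 and 0.86.

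**Figure D3:**
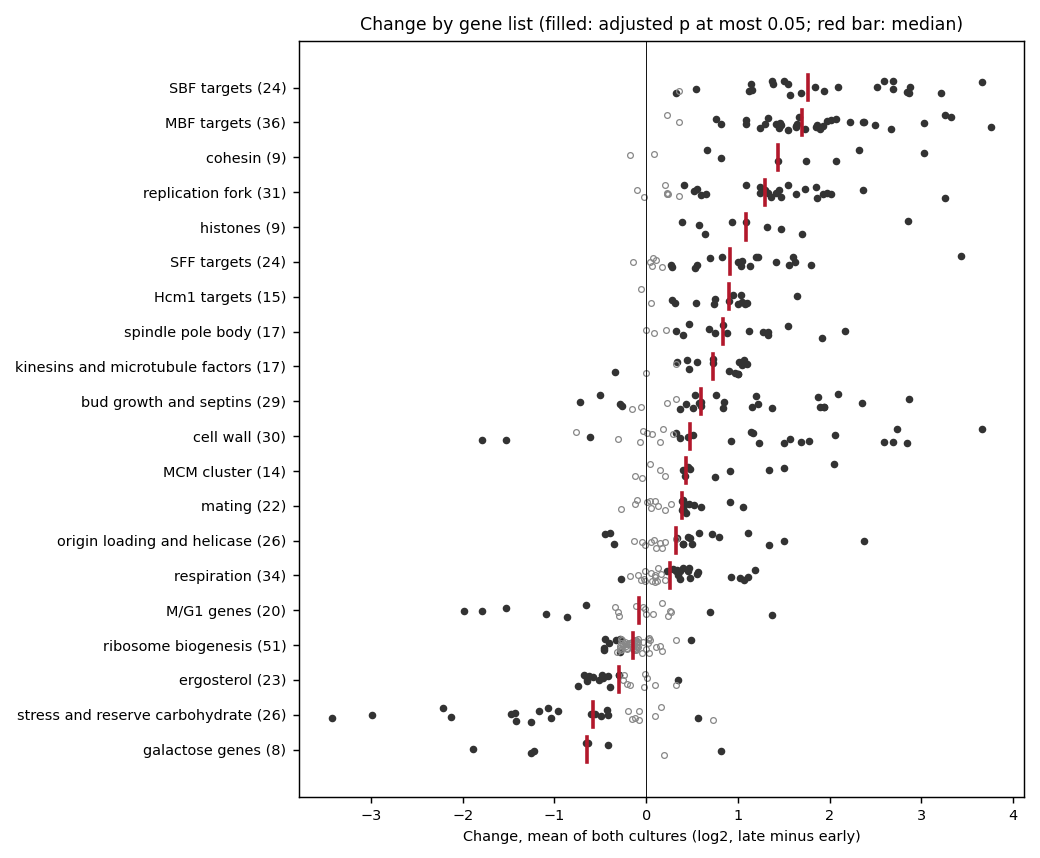
Change of each member (x axis, log2 of late over early, mean of both cultures) of 20 gene lists (y axis, number of genes measured in brackets). Filled circles are called genes, open circles the rest, and red bars the medians. SBF and MBF targets lie almost wholly above 0, and galactose and stress genes mostly below it.

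Genes of spindle building rose as well, and their rise was under way at 80 min. The median of Hcm1 targets relative to the early window was then 0.34 and 0.39 in the cultures, and that of spindle pole body genes 0.53 and 0.39. Of 15 Hcm1 targets, 13 rose and 0 fell, with a median of 0.91, and *DSN1* (-0.06) and *FKH2* (0.05), named after their values were seen, did not pass. *YHP1*, a partner of Yox1 in repression, rose by 1.64 (adjusted p = 0.00093), *NDD1*, the co-activator of the SFF, by 1.08, the microtubule polymerase gene *STU2* by 1.09 and the kinesin gene *CIN8* by 1.04. Of 17 genes of the spindle pole body, the microtubule-organizing centre of yeast, 14 rose and 0 fell. *SPC29* rose by 2.16 (adjusted p = 0.00039), from 108 to 137 in the early arrays to 512 to 589 in the late ones, *BBP1* by 1.92, the gamma-tubulin gene *TUB4* by 1.55 and *SPC42* by 1.33. Of 17 kinesins and microtubule factors, 14 rose and *SMY1* fell (-0.34, adjusted p = 0.0078, named after its value was seen). The tubulin gene *TUB1* rose by 1.02, yet read 3997 and 7367 at 100 min against 7771 and 11809 at 120 min. *KAR3*, another kinesin, rose by 1.06. Of 31 kinetochore genes, 20 rose and 3 fell, with a median of 0.39, and 10 rose with either culture left out.

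Of 24 SFF targets, 18 rose and 0 fell, with a median of 0.91, but most of them had not finished rising. *SWI5*, a transcription factor of M/G1 genes, read 279, 652, 726 and 1467 in culture 1 and 164, 264, 610 and 909 in culture 2, and went on to 2715 and 2262 at 140 min. Its change was 1.56 (SE 0.24, adjusted p = 0.0026). *ALK1* rose by 1.62 and *CDC5*, the polo kinase, by 0.83. *ACM1*, the largest riser of the list, was highest at 100 min in both cultures, at 2062 and 2314, and not with *CLB2* or *SWI5*. Over 40 to 180 min, 18 of the 24 SFF targets had their highest array at 160 or 180 min in culture 1 and 19 in culture 2.

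The order of the waves can be read from the highest array of each gene between 40 and 180 min. All 36 MBF targets were highest at 100 or 120 min in culture 1 (20 and 16 genes) and 35 in culture 2 (25 and 10 genes). Of 31 fork genes, 20 and 19 were highest at 100 min. Of 9 histone genes, 7 in culture 1 and 6 in culture 2 were highest at 120 min, and the rest at 140 min. Of 15 Hcm1 targets, 11 in each culture were highest at 120 or 140 min, and of 17 kinesins and microtubule factors, 10 and 7 were highest at 140 min. Of 17 spindle pole body genes, 5 and 9 were highest at 100 min in culture 1 and culture 2, and 9 and 5 at 120 min. With arrays 20 min apart, neighbouring times in this order cannot be resolved further. Some genes are on more than 1 list, such as *POL30* (MBF targets and fork genes), and *STU2* and *CIN8* (Hcm1 targets and kinesins).

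**Figure D4:**
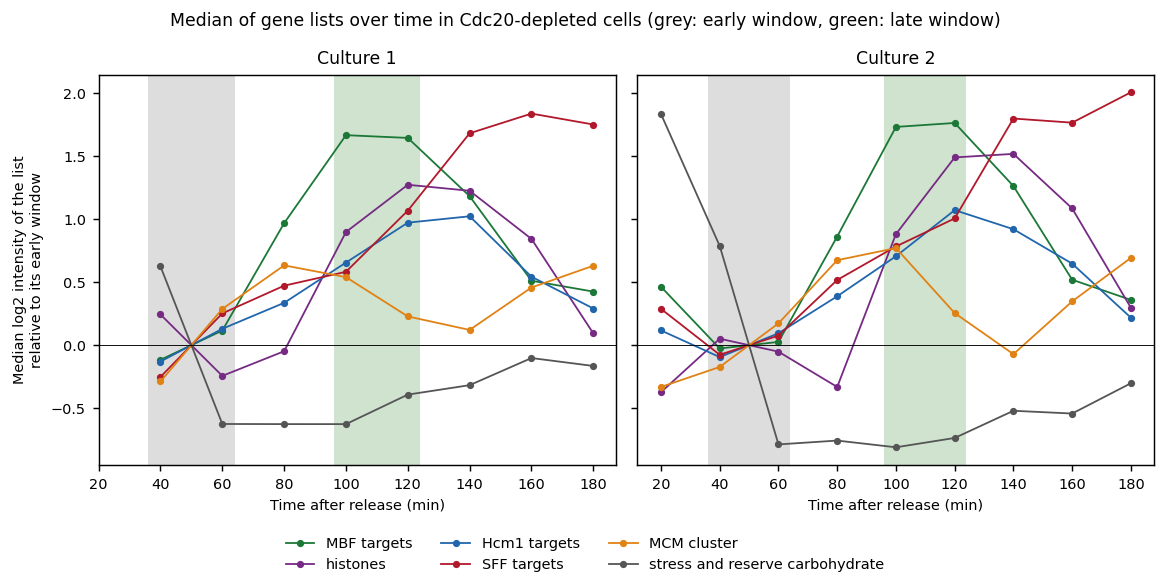
Median log2 intensity of 6 gene lists relative to each list's early window (y axis) against time after release (min), in culture 1 (left) and culture 2 (right). Grey marks the early and green the late window. MBF targets are highest at 100 to 120 min, histones at 120 to 140 min and SFF targets after 140 min, while stress genes fall between 40 and 60 min and stay low through the late window.

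Genes of the M/G1 boundary, many of them for daughter cell separation, mostly did not rise. Of 20, 2 rose, 6 fell and 12 did not pass, with a median of -0.08, where 25.9% of all probe sets fell, so that the number of falls was near that of probe sets at large. *BUD9*, a bud site gene that is also on the SBF list, rose by 1.37 (adjusted p = 0.0027) and the cell wall gene *SUN4* by 0.70 (adjusted p = 0.00095). The members with the lowest values encode cell wall proteins: *PST1* (-1.99), *PIR1* (-1.79) and *PIR3* (-1.53). *PIR1* read 4145, 2686, 1124 and 1143 in culture 1 and 7683, 3724, 1526 and 1126 in culture 2.

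Many genes of bud growth rose too. Of 29 genes of bud sites, polarity and septins, 21 rose and 4 fell, where 25.8% of all probe sets rose and 25.9% fell. *AXL2*, which marks the bud site, read 546, 480, 2174 and 2692 in culture 1 and 542, 626, 3161 and 3259 in culture 2, a change of 2.35 (SE 0.30, adjusted p = 0.0012). *GIC1*, an effector of the polarity GTPase Cdc42, rose by 2.09, and *HSL1*, a kinase of the bud neck, by 1.94. The members that fell, named after their values were seen, were the formin gene *BNI1* (-0.73), *BEM1* (-0.50), *CDC24* (-0.29) and the septin gene *SHS1* (-0.26). Of 30 cell wall genes, 18 rose and 3 fell. Beside *TOS6*, the rises were led by *CSI2* (2.84), the glucanase *SCW10* (2.74) and *SVS1* (2.69), and those that fell were *PIR1*, *PIR3* and *SED1* (-0.61).

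The largest falls were of genes of another kind, which were already low at 80 min. Relative to the early window the 10 with the largest falls then stood between -3.48 (*NQM1*) and -1.77 (*HSP12*) in culture 1, and between -3.65 (*FMP16*) and -2.09 (*HSP12*) in culture 2. *NQM1*, a transaldolase, read 12673, 2977, 325 and 296 at 40, 60, 100 and 120 min in culture 1 and 17062, 6443, 409 and 339 in culture 2, a change of -4.56 (SE 0.20, adjusted p = 0.00019), or 23.6-fold lower. *CTT1*, the cytosolic catalase, read 10838 at 40 min and 560 at 60 min in culture 1, then 286 and 268, and 14877 and 1067 in culture 2, then 307 and 309. Its change was -3.42 (SE 0.13, adjusted p = 9.3e-05). *HSP12*, a membrane chaperone, read 30204, 15471, 3490 and 3203 in culture 1 and 32138, 20377, 2896 and 2409 in culture 2, a change of -2.98. *TKL2*, a transketolase, changed by -2.94, *STL1*, a glycerol transporter, by -3.13, *GRE1*, a stress-induced hydrophilin, by -3.44 and *GSP2*, the minor Ran GTPase gene, by -3.04. The other falls among the 10 largest were *FMP16* (-4.07), *GPG1* (-3.48) and *MSC1* (-3.18).

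Of 26 genes of general stress, trehalose and glycogen, 17 fell and 1 rose, with a median of -0.58 (-0.43 and -0.79 in the cultures). *NTH1*, a trehalase, fell by 2.13 and *SOL4*, of the pentose phosphate pathway, by 2.21, while the glycogen synthase gene *GSY1* rose by 0.57 (adjusted p = 0.017, named after its value was seen). In 19 genes in culture 1 and 21 in culture 2 the array at 40 min was the highest of those from 40 to 180 min. With 60 min as the only early array, 5 fell and 8 rose, with a median of 0.15, so the fall of this list as a whole was seen only with the array at 40 min. On that measure *SOL4* changed by -0.18 (adjusted p = 0.20) and *CTT1* by -1.41 (adjusted p = 0.00084), while *NQM1* still changed by -3.69 (adjusted p = 0.00021). With both early arrays, 9 genes of the list fell without culture 2 and 15 without culture 1. The array at 20 min, in culture 2 alone, stood 1.84 above the early window in the median of the list.

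Galactose genes also fell. Of 8, 6 fell and 1 rose, with a median of -0.64. Relative to the early window their median went from -0.32 and -0.33 at 60 min to -0.67 and -0.92 at 120 min and -1.21 and -1.03 at 180 min in the cultures. *GAL1* changed by -1.89 (SE 0.09, adjusted p = 0.00022), *GAL10*, the epimerase gene, by -1.25 (adjusted p = 0.0011), the aldo-keto reductase gene *GCY1* by -1.22 and *GAL7*, the transferase gene, by -0.66 (adjusted p = 0.011). *GAL7* had already come from 8604 at 20 min to 1029 at 40 min in culture 2. *GAL80*, the repressor of the pathway, rose by 0.82 (SE 0.07, adjusted p = 0.00044). With 60 min as the only early array, 4 of the 8 were called lower and 2 higher, with a median of -0.29, and *GAL1* changed by -1.10 (adjusted p = 0.00028).

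Genes of growth and metabolism moved less. Of 34 respiratory genes, 18 rose and 1 fell, with a median of 0.26, where 25.8% of all probe sets rose, and 11 rose without culture 1, 7 without culture 2. The succinate dehydrogenase gene *SDH3* rose by 1.18 (SE 0.09, adjusted p = 0.00029) and the ATP synthase gene *ATP2* by 1.02 (adjusted p = 0.00033). Of 23 genes of ergosterol synthesis, 13 fell and 1 rose (*ERG4*, 0.35, named after its value was seen), with a median of -0.30. In 12 of the 23 the late arrays lay wholly below the early ones, against 13.3% of all probe sets. Without culture 1, 8 fell, and without culture 2, 10. *IDI1* fell by 0.75 and *HMG1*, which encodes the rate-limiting reductase, by 0.67. Of 51 genes of ribosome biogenesis, 43 did not pass, 7 fell and 1 rose, with a median of -0.15. This is a smaller share of falls than the 25.9% of all probe sets. The medians of the cultures were -0.25 and -0.03. With 60 min as the only early array, 39 of the 51 fell and 1 rose, with a median of -0.39. On that measure 1280 of all 5716 probe sets fell. *EBP2* fell by 0.46, and *NOP1*, the rRNA methyltransferase, rose by 0.48. Of 127 cytosolic ribosomal protein genes, 118 did not pass, and their median was 0.05. In the sulphur list of 22 genes, 4 rose and 2 fell, smaller shares than the 25.8% and 25.9% of all probe sets. Its largest called changes were those of *SAM2*, an S-adenosylmethionine synthetase (-1.31), and *CYS3*, a cystathionine lyase (1.28). *SAM2* went from 8936 and 7769 at 60 min to 1947 and 3005 at 80 min, and read 4806 and 4284 at 120 min.

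Genes with Mcm1 sites that are read in early G1 (the MCM cluster) had a higher median at 80 to 100 min than at 120 and 140 min, and a high one again at 180 min. Of 14, 9 rose and 0 fell, with a median of 0.44, and 5 rose with either culture left out. Relative to the early window the median was 0.63 and 0.67 at 80 min in the cultures, 0.23 and 0.26 at 120 min, and 0.63 and 0.69 at 180 min. In 6 genes in culture 1 and 4 in culture 2 the array at 180 min was the highest. Of 22 mating genes, 12 rose and 0 fell, with a median of 0.39, and 5 rose without culture 1, 8 without culture 2. Measured from 60 min alone, 7 genes of the MCM cluster rose and 3 fell, and 9 mating genes rose and 3 fell, with medians of 0.24 and 0.10. *FUS1*, a gene of cell fusion, rose by 1.06 (SE 0.08, adjusted p = 0.00035), from 305, 641, 363 and 501 early to 1172, 835, 974.5 and 701 late. *AGA1*, a subunit of the a-agglutinin, rose by 0.92. The Cdk inhibitor *FAR1* rose by 0.60 and *SST2*, which damps the pheromone signal, by 0.52, but with 60 min as the only early array these changed by -0.04 and -0.07. For *AGA2*, *MFA1* and *MFA2* the rises were 0.44, 0.40 and 0.42, and a later window of 120 and 140 min turned *AGA2* (-0.15) and *MFA1* (-0.09) while 60 min as the only early array turned *MFA2* (-0.05). *STE2* (0.04) and *STE6* (-0.12) were not called. From 60 min alone, 9 mating genes were called higher and 3 lower, with a median of 0.10, and 7 and 3 of the MCM cluster, with a median of 0.24.

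The comparison with *cdc8* cells asked how far this transition depends on the strain. The *cdc8* windows were 50 and 60 min and 100 and 120 min, so the clock was nearly matched but the first arrays differed by 10 min, and cell-cycle positions were not matched. The strains also differ in *BAR1*, in the galactose promoter construct and its growth history and in the tubulin tag, and these cannot be told apart from the depletion of Cdc20 or from the *cdc8* allele. Both strains were released at the same temperature, which is restrictive for the *cdc8* allele. The change differed between the strains in 943 probe sets (16.5%), with 493 higher (8.62%) and 450 lower (7.87%) in Cdc20-depleted cells. In 493 of the 943 the mean changes had opposite signs. Choosing probe sets by their difference favours this, and the share over all probe sets was not counted. Leaving out a culture of either strain left 130 to 438 probe sets called, the lowest of them without culture 2 of Cdc20-depleted cells.

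The G1/S regulon had medians well above 0 in *cdc8* cells too, where no call was made within the strain. For SBF targets the medians were 1.76 and 1.95 in the *cdc8* cultures, and 1 of 24 differed in each direction. For MBF targets they were 1.38 and 1.54, and 0 of 36 differed at an adjusted p of 0.05. *CLN2* changed by 2.62 and 3.15 in *cdc8* cells, a difference of -0.01 (adjusted p = 0.99), and *MCD1* by 3.26 and 3.50, a difference of -0.35 (adjusted p = 0.67). *RNR1* changed by 1.85 and 1.89 there, starting at 4112 to 6307 and reaching 18030 to 19719. The difference of 1.89 had an adjusted p of 0.066, and of 0.010 when the spread came from these strains alone, where 6 MBF targets differed upwards and 2 downwards. *HTA2* differed by -0.73 (SE 0.13, adjusted p = 0.018), its early arrays reading 3668 to 5737 in Cdc20-depleted cells and 1388 to 1768 in *cdc8* cells. The *HTA2* difference was -0.48 (adjusted p = 0.19) with 60 min as the only early array.

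**Figure D5:**
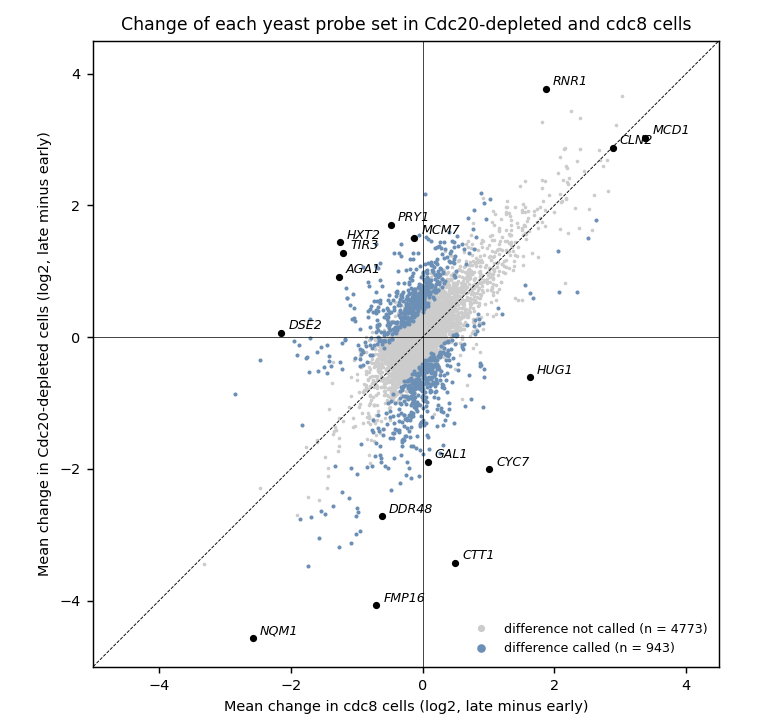
Mean change of each of 5716 yeast probe sets in *cdc8* cells (x axis) and in Cdc20-depleted cells (y axis), both as log2 of the late window over the early window. Blue points are the 943 probe sets whose change differed, grey points the rest, black points named genes, and the dashed line marks equal change. *CLN2* and *MCD1* lie near the line, *CTT1*, *CYC7* and *HUG1* below it, and *HXT2*, *TIR3* and *AGA1* above it.

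The largest negative difference was that of *CTT1* (-3.92, SE 0.18, adjusted p = 0.00069), which in *cdc8* cells read 2058, 782.5, 1071 and 2876 at 50, 60, 100 and 120 min in culture 1 and 1810, 592, 999 and 2223 in culture 2. It had already come down from 15125 and 18351 at 30 min there, and rose again late, which it did not do in Cdc20-depleted cells. *CYC7*, a form of cytochrome c, fell to 425 and 352 at 120 min in Cdc20-depleted cells but reached 1861 and 1267 in *cdc8* cells, a difference of -3.02 (SE 0.17, adjusted p = 0.0011). *FMP16* differed by -3.37 and the stress gene *DDR48* by -2.10. Of the stress list, 12 of 26 had a lower change in Cdc20-depleted cells and 1 a higher one. The latter was the glycogen phosphorylase gene *GPH1* (1.75, named after its value was seen). Over all probe sets 7.87% had a lower change and 8.62% a higher one. The median difference of the list was -0.76 without culture 1 of Cdc20-depleted cells and -0.42 without culture 2. With 60 min as the only early array, 10 were lower and 2 higher, and the differences were -2.65 for *CTT1* (adjusted p = 0.0025), -2.46 for *CYC7* and -0.23 for *STL1* (adjusted p = 0.72), where the main difference of *STL1* had been -2.04.

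*HUG1* rose in *cdc8* cells by 1.63 and 1.62, to 3467 and 2385 at 120 min, and fell in Cdc20-depleted cells, a difference of -2.24 (SE 0.10, adjusted p = 0.00069). Of the 17 nucleotide genes 1 had a higher change in Cdc20-depleted cells (*DIF1*, 0.83, adjusted p = 0.044) and 5 a lower one, with a median difference of 0.09 over the list. Of all probe sets 8.62% had a higher change and 7.87% a lower one, so the share of higher genes was not above that at large. The *DIF1* difference lost its call with any culture of either strain left out (adjusted p = 0.10 to 0.21). The lower ones were *HUG1*, *RNR4* (-0.75), *RNR2* (-0.69), *RFX1*, which encodes the repressor of damage-induced ribonucleotide reductase genes (-0.66), and *RNR3* (-0.48). Of these 5 and *DIF1*, those other than *HUG1* were named after their values were seen. Without culture 1, 0 of the 17 differed upwards and 2 downwards, without culture 2, 1 and 1, and with 60 min as the only early array, 2 and 2. The *RNR3* difference was 0.02 with 60 min as the only early array.

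In the other direction, mating and early G1 genes had a negative median change in *cdc8* cells (mating -0.72 and -0.56, MCM cluster -0.47 and -0.16) and a positive one in Cdc20-depleted cells. These lists share members, such as *AGA1*, so their counts are not separate. Of 22 mating genes 15 had a higher change in Cdc20-depleted cells and 0 a lower one. For 14 in the MCM cluster these counts were 10 and 0. Over all probe sets 8.62% had a higher change and 7.87% a lower one. Without culture 1 or culture 2 of Cdc20-depleted cells the median difference was 0.62 and 0.96 for mating genes. For the MCM cluster it was 0.73 and 0.73, and over all probe sets 0.02 and 0.02. *AGA1* changed by -1.29 and -1.25 in *cdc8* cells, a difference of 2.19 (SE 0.13, adjusted p = 0.0015), *FUS1* differed by 1.96 and *FAR1* by 1.75. *MCM7* differed by 1.63 (SE 0.21, adjusted p = 0.0074), *SWI4* by 1.12 (adjusted p = 0.034) and *CLN3* by 0.92 (adjusted p = 0.0062). *MCM7* already read 1085 to 1542 in the early *cdc8* arrays, against 396 to 811 in Cdc20-depleted cells. Of 20 M/G1 genes 10 differed upwards and 0 downwards. Their median difference was 0.84 without culture 1 and 0.48 without culture 2 of Cdc20-depleted cells. *DSE2*, a glucanase of daughter cells, read 4188, 3996, 1035 and 713 in culture 1 and 4065, 6247, 1493 and 1013 in culture 2 of *cdc8*, against 402 to 824 in the 8 arrays of Cdc20-depleted cells, a difference of 2.21 (SE 0.21, adjusted p = 0.0040). The high-affinity glucose transporter *HXT2* differed by 2.70 (SE 0.19, adjusted p = 0.0016), the mannoprotein gene *TIR3* by 2.49 and the sterol-binding gene *PRY1* by 2.18. *HXT2* rose from 221, 401, 654 and 473 to 801, 1047, 1513 and 1178 in Cdc20-depleted cells and came down from 4429 to 6807 to 1798 to 3431 in *cdc8* cells.

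The strains that carry both cdc8ts and the *CDC20* construct were sampled at 36 and 54 min and at 108 and 126 min, so their values are set beside these without a test. Their SBF targets had median changes of -0.76 and 0.34 in the rad53-1 cultures and -0.42 in the culture without rad53-1, and their histones 0.80, 1.10 and 1.24. *CLN2* changed by -2.18 and -0.24 in the rad53-1 cultures, which differed from each other more than the cultures of Cdc20-depleted cells did (2.68 and 3.07). The spread in the fit came from the strains with a pair of cultures, as a lone culture adds none. The gap between the rad53-1 cultures therefore widened the errors of G1/S genes.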

How the data were processed

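Transcript levels were measured on Affymetrix Yeast 2.0 arrays. The deposited values are linear intensities per probe set, which the authors made from the scans with the affy package (version 1.32.1), by invariant-set normalization and the Li-Wong model on perfect-match probes, without background correction, together with arrays that were not used here. Fission yeast probes were masked by the authors. Control probe sets (184 of 5900) were dropped. Of the 5716 kept, 5498 had 1 gene symbol in the platform annotation, with symbols updated through RefSeq for 12. The number of arrays, and of cultures (2 of this strain), limits the precision.

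Intensities were taken to log2 and averaged over 40 and 60 min and over 100 and 120 min, and the difference within each culture was the unit of the test. The fit in limma 3.58.1 (R 4.3.3) held 7 cultures (28 arrays) with a mean for each strain and 3 residual degrees of freedom, and p-values were adjusted by the Benjamini-Hochberg method over 5716 probe sets. Early and late arrays of a culture were paired because they come from the same culture. The labels call the cultures replicates, so p-values measure only the spread between these cultures. The fit of the change was tested on simulated data. There, far fewer probe sets were changed than were called here, and by more than the median called change. The simulation therefore cannot check the calls made here.

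Genes were named by these rules: the 10 largest rises and falls, up to 4 called members with the largest change in each list, fixed cell-cycle genes, mating-type markers, and the 5 largest strain differences in each direction. Members and lists were chosen with earlier results of these data known. Some list members were not analysed here, and promoter motifs were not searched, as no promoter sequence was used here. Alternatives covered the array scale, pseudocount, averaging, dim probe sets, windows, pairing, prior, and the cultures in the fit.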

Additional observations from a re-analysis of the deposited data

Results flagged for a closer look

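The genes below are those named in the text whose change over the interval differed between Cdc20-depleted and *cdc8* cells. The threshold was an adjusted p of 0.05 (limma, Benjamini-Hochberg over 5716 probe sets). The change differed in 53 of 136 named genes, against 16.5% of all probe sets. Some were named because they had the largest strain differences, and others after their values were seen, so their choice fixed part of this count. Each value is the log2 change in Cdc20-depleted cells minus that in *cdc8* cells. The change was lower in Cdc20-depleted cells for *CTT1* -3.92, *FMP16* -3.37, *CYC7* -3.02, *HUG1* -2.24, *DDR48* -2.10, *STL1* -2.04, *NQM1* -1.98, *TKL2* -1.98, *HSP12* -1.98. It was also lower for *GAL1* -1.97, *NTH1* -1.96, *MSC1* -1.92, *SOL4* -1.86, *GPG1* -1.73, *GSP2* -1.47, *GAL10* -1.01, *PCL5* -0.80, *SAM2* -0.78. It was also lower for *RNR4* -0.75, *HTA2* -0.73, *RNR2* -0.69, *RFX1* -0.66, *BNI1* -0.61, *SHS1* -0.61, *RNR3* -0.48, *DSN1* -0.44. The change was higher for *HXT2* 2.70, *TIR3* 2.49, *DSE2* 2.21, *AGA1* 2.19, *PRY1* 2.18, *FUS1* 1.96, *GPH1* 1.75, *FAR1* 1.75, *CYS3* 1.72. It was also higher for *MCM7* 1.63, *AGA2* 1.49, *MFA2* 1.22, *BAR1* 1.22, *SST2* 1.16, *SWI4* 1.12, *SDH3* 0.97, *CLN3* 0.92, *ATP2* 0.87. It was also higher for *DIF1* 0.83, *MFA1* 0.74, *CDC6* 0.71, *GAL80* 0.70, *STE6* 0.68, *SUN4* 0.66, *STE2* 0.63, *SAG1* 0.62, *NOP1* 0.53. *BAR1* is deleted in the Cdc20-depleted strain, where its probe set read 66.7 to 146 in the arrays of the early and late windows, so its difference is no difference between levels of a transcript present in both strains. The strains differ in more than the 1 gene, and their windows in the first array, so the part of each in these differences cannot be told apart.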

How the results depend on the processing

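The count of 2960 probe sets whose level changed was 1676 when the 8 arrays were taken as units with the culture as a replicate block, and 2063 with no replicate block, where window means entered unpaired. Leaving out 1 culture gave 1471 to 2968, with 1747 without culture 1 and 1471 without culture 2 of Cdc20-depleted cells, where the lone culture is assumed to vary like the others. The other alternatives gave 2419 to 3145. With these cultures alone in the fit 2960 were called, not wholly the same genes, as *OCH1* was then called (adjusted p = 0.035, limma). The count of 943 strain differences was 488 with a late window of 80 and 100 min, 1765 with 120 and 140 min, and 356 with no replicate block, 354 of which were also among the 943. Leaving out 1 culture gave 130 to 943. The cause of these shifts was not tested, beyond the smaller number of cultures where 1 was left out.

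Of the named genes, the change of *BAR1* was -0.053 after quantile normalization. With 60 min as the only early array *FAR1* changed by -0.039, *SST2* by -0.072, *MFA2* by -0.051 and *STE2* by -0.30. With the late window at 120 and 140 min *MFA1* changed by -0.092 and *AGA2* by -0.15. The *RNR3* difference was 0.20 with the late window at 80 and 100 min and 0.018 with 60 min as the only early array. Counting each named gene once per alternative, apart from leaving out a culture, 7 values of the change and 2 of the difference turned direction, 55 and 65 lost their call, 17 and 51 gained one, and 1538 and 1363 kept both. The promoter motif search was not run. Cross-hybridization between near-identical genes and signal near background limit the dimmest genes, such as *BAR1* in these cells.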
